A study of Mus musculus with 9 samples.

Results

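The genes described here mark the acid-secreting, enzyme-secreting and hormone-secreting cells of the stomach glands: Atp4a, Atp4b, Gif, Pgc, Chia, Gast, Ghrl, Sst and Chga. The array writes their target names as ATP4A, ATP4B, GIF, PGC, CHIA, GAST, GHRL, SST and CHGA. Every probe with 1 of these 9 names was taken, which gave 9 of 30774 target names and 13 of 45281 probes. The samples were gastric tumours of mice homozygous for gp130Y575F/F, a change in the receptor chain shared by IL6 and IL11, on a mixed 129/BL6 background and aged 6 to 8 weeks. Each mouse received 1 intraperitoneal injection 60 min before it was killed: IL6 (5 µg in 200 µl PBS) in 3 mice, IL11 (5 µg in 200 µl PBS) in 3 mice, or PBS alone (200 µl) in 3 mice. All 9 tumours carry the receptor change, and no wild-type or non-tumour stomach was analysed here. With 3 tumours per group, the p-values measure the spread between these samples, and RNA came from the whole resected piece, so that fewer cells of a type and less RNA per cell cannot be told apart.

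Gastric glands hold several secretory lineages. Parietal cells pump acid through the H+/K+-ATPase, and chief cells at the gland base store digestive proenzymes. Endocrine cells adjust this secretion: G cells of the antrum release gastrin, which drives acid secretion, D cells release somatostatin, which restrains it, and X/A-like cells, most of them in the corpus, release ghrelin, a hormone of appetite and growth hormone release. IL6 and IL11 both signal through gp130, which activates STAT transcription factors.

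The stomach origin given by the labels was borne out by gastric mucous-cell markers, which do not bear on the tumour label. Gkn1 and Gkn2 encode gastrokines of surface cells, Ctse an aspartic protease of gastric epithelium, and Tff2 a trefoil peptide of mucous neck cells. All of these were detected on all 9 arrays, with group means of at least 13.8 on the normalized log2 scale. Muc5ac, a mucin of pit mucous cells, was less even, and its probes were detected on at most 8 arrays. Its level ran from 4.91 on PBS replicate 3 to 10.94 on PBS replicate 2. Between 37.4% and 40.6% of the probes were detected per array, at a detection p-value under 0.05 against the array's negative controls. Mean raw signal lay at 398 to 652 in the IL6 group, 448 to 524 in the IL11 group and 300 to 419 in the PBS group. PBS tumours resembled each other less than the treated tumours did: pairs of arrays correlated at 0.977 to 0.982 within the IL6 group, 0.982 to 0.986 within the IL11 group and 0.931 to 0.941 within the PBS group, over the kept probes. PBS replicate 2 correlated at 0.922 to 0.935 with every other array, the lowest range of all 9, and held 67 and 34 probes at least 4 log2 below and above the mean of the others, against 20 and 10 on PBS replicate 3. PBS replicate 3 stood apart in several of the genes described here. Changes against PBS are therefore also given without a PBS array where it moves them most.

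Promoter sequence is shown for the 3 hormone genes that set PBS replicate 3 apart, from RefSeq on the GRCm38.p6 assembly. Each window runs 300 bases, 250 before and 50 after the annotated start, on the strand of the gene. The capitals mark a motif found by its letters on either strand: a TATA box (TATAAA) for Gast, a cyclic AMP response element (TGACGTCA) for Sst, and the STAT-type motif (TTCNNNGAA) for Ghrl. The Gast window is chr11:100334157-100334456 on the plus strand, the Sst window is chr16:23890795-23891094 on the minus strand, and the Ghrl window, 1 of 4 listed for that gene, is chr6:113717643-113717942 on the minus strand.
Gast: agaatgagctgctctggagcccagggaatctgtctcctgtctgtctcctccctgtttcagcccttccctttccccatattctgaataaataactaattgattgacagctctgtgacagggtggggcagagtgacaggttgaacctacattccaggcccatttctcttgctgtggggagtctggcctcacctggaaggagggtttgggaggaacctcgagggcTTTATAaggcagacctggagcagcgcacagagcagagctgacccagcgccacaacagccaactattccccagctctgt
Sst: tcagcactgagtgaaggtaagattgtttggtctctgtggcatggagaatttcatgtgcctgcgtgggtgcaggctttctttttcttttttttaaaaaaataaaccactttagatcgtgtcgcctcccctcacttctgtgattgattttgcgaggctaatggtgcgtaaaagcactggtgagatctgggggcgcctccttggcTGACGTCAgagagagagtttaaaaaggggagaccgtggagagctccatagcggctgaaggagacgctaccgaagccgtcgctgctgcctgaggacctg
Ghrl: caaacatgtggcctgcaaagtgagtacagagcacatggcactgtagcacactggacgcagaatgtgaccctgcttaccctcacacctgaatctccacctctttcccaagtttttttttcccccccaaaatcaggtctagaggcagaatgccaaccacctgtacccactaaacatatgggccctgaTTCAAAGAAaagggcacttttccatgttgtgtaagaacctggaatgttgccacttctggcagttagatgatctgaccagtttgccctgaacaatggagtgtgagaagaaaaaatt
Of all 32851 mouse windows of this length, 13.6% held TATAAA, 1.79% held TGACGTCA and 8.3% held TTCNNNGAA, on either strand. Among the 11 windows of the 8 genes that had one, 4 held the first motif, 1 the second and 1 the third. The Gast match lies on the opposite strand to the gene, so that it reads TTTATA above. A match describes the letters only.

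The parietal pump was close to or below background in these tumours. Atp4a, the catalytic subunit of the H+/K+-ATPase, was detected on 0 of 9 arrays, with normalized log2 levels of 4.40 to 4.71. Atp4b, its glycosylated partner subunit, was detected on 2 of 9 arrays: IL6 replicate 2 at 5.11 and PBS replicate 3 at 5.09. Chia, acidic mammalian chitinase, whose probes number 2, was detected on 0 of 9 arrays by either probe. These 4 probes did not meet the detection requirement of 3 of 9 arrays, so that 9 probes of 6 genes entered the test among 18925 kept probes. A probe below background gives only an upper bound on the transcript, and no change was computed for Atp4a, Atp4b and Chia.

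Other parietal genes were in part measurable. Of 23 listed parietal genes, the pump subunits included, 22 were on the array and 14 were kept, and 6 were detected on no array, as were 47% of all target names: Atp4a, Kcne2, Slc26a7, Cckbr, Esrrg and Trim50. Car2, a carbonic anhydrase that other epithelial cells also make, had the brightest probe of the list, at 13.57 ± 0.52 in IL6, 13.43 ± 0.28 in IL11 and 13.39 ± 0.04 in PBS tumours (SD, n = 3 each). With limma and Benjamini-Hochberg adjustment, 0 of the 14 passed in either direction against PBS with IL6 (2 at an unadjusted p under 0.05, beside 14.4% of all kept probes) or with IL11 (3 unadjusted, beside 13.4%). The list's median log2 change was -0.21 with IL6 and -0.13 with IL11, beside -0.01 over all kept probes in each comparison.

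Single parietal-list genes varied more. Groups did not overlap for 2 of the 14 kept genes in IL6 minus PBS and 3 in IL11 minus PBS, beside 16.8% and 18.7% of all kept probes. Ckb, brain-type creatine kinase, averaged 9.88 ± 0.42 in IL6, 10.11 ± 0.19 in IL11 and 11.12 ± 0.63 in PBS tumours (SD, n = 3 each), and all treated tumours lay below all PBS tumours, but the differences of -1.24 and -1.01 log2 did not pass (adjusted p = 0.194 and 0.280, limma). Without PBS replicate 1 the Ckb change with IL6 was -1.51 and passed (adjusted p = 0.0385, limma), as did 737 of all 18925 kept probes. With all arrays 50 probes passed. Without PBS replicates 2 and 3 in turn the Ckb change with IL6 was -0.90 and -1.31 (adjusted p = 0.358 and 0.224, limma). With IL11 it was -1.28 without PBS replicate 1 (adjusted p = 0.0630, limma). Slc26a9, a chloride transporter of surface and parietal cells, differed by 1.17 ± 0.38 log2 in IL11 minus PBS (SE, adjusted p = 0.286, limma), with every IL11 tumour above every PBS tumour. Without PBS replicate 3 it differed by 0.67 (adjusted p = 0.263, limma). Chrm3, a muscarinic acetylcholine receptor, differed by 0.86 ± 0.42 in IL6 minus PBS (SE, adjusted p = 0.378, limma), with overlapping groups, and by 1.43 without PBS replicate 3 (adjusted p = 0.058, limma).

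The chief-cell genes Gif and Pgc were detected on every array. Gif, gastric intrinsic factor (current symbol Cblif), binds vitamin B12 and is made by chief cells in the mouse. Its log2 levels were 8.42, 6.47 and 7.14 in IL6 tumours, 9.92, 9.10 and 8.83 in IL11 tumours, and 5.30, 7.82 and 8.74 in PBS tumours. Each IL11 tumour lay above every tumour of the other groups, narrowly so for PBS replicate 3, while IL6 and PBS tumours overlapped. PBS replicate 1 had a detection p-value of 0.0438, just inside the detection threshold. The difference in IL11 minus PBS was 2.00 ± 0.80 log2 (SE), a fold of 4.0 with a 95% confidence interval of 1.16 to 13.8, and did not pass after adjustment (unadjusted p = 0.0317, adjusted p = 0.342, limma). The difference was 1.54 log2 with another background correction (normexp) and 1.40 with none. It was 1.00 log2 without PBS replicate 1 and 2.72 without PBS replicate 3 (adjusted p = 0.302 and 0.210, limma). In IL11 minus IL6 it was 1.95 ± 0.80, a fold of 3.85 with an interval of 1.12 to 13.3 (unadjusted p = 0.0355, adjusted p = 1.00, limma).

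Pgc encodes progastricsin, a zymogen of the pepsin family. Its log2 levels were 12.81, 12.49 and 11.73 in IL6 tumours, 12.57, 12.66 and 12.37 in IL11 tumours, and 11.04, 12.82 and 11.19 in PBS tumours. IL11 tumours varied little, and PBS replicate 2 was level with the highest IL6 tumour while the other PBS tumours were low. The differences from PBS were 0.66 ± 0.45 with IL6 (SE, adjusted p = 0.498, limma) and 0.85 ± 0.45 with IL11 (SE, adjusted p = 0.421, limma), and 1.23 and 1.42 without PBS replicate 2 (adjusted p = 0.282 and 0.237, limma). Among 8 listed chief-cell genes, 7 were on the array and 5 were kept, of which 0 passed in either direction with either cytokine (0 and 1 at an unadjusted p under 0.05, beside 14.4% and 13.4% of all kept probes). The list's median change was 0.22 with IL6 and 0.09 with IL11. Xbp1, a transcription factor of secretory cells, had the brightest probe of the list, at 13.51 to 13.73 by group mean. Bhlha15, a transcription factor of mature chief cells, differed by 0.64 ± 0.37 log2 in IL6 minus PBS, and Pga5, a pepsinogen, by -0.72 ± 0.91 log2 in IL11 minus PBS (SE), both with overlapping groups. Without PBS replicate 3 the Pga5 change was 0.04, and without PBS replicates 1 and 2 in turn the Bhlha15 change was 0.29 and 1.05.

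**Figure D1:**
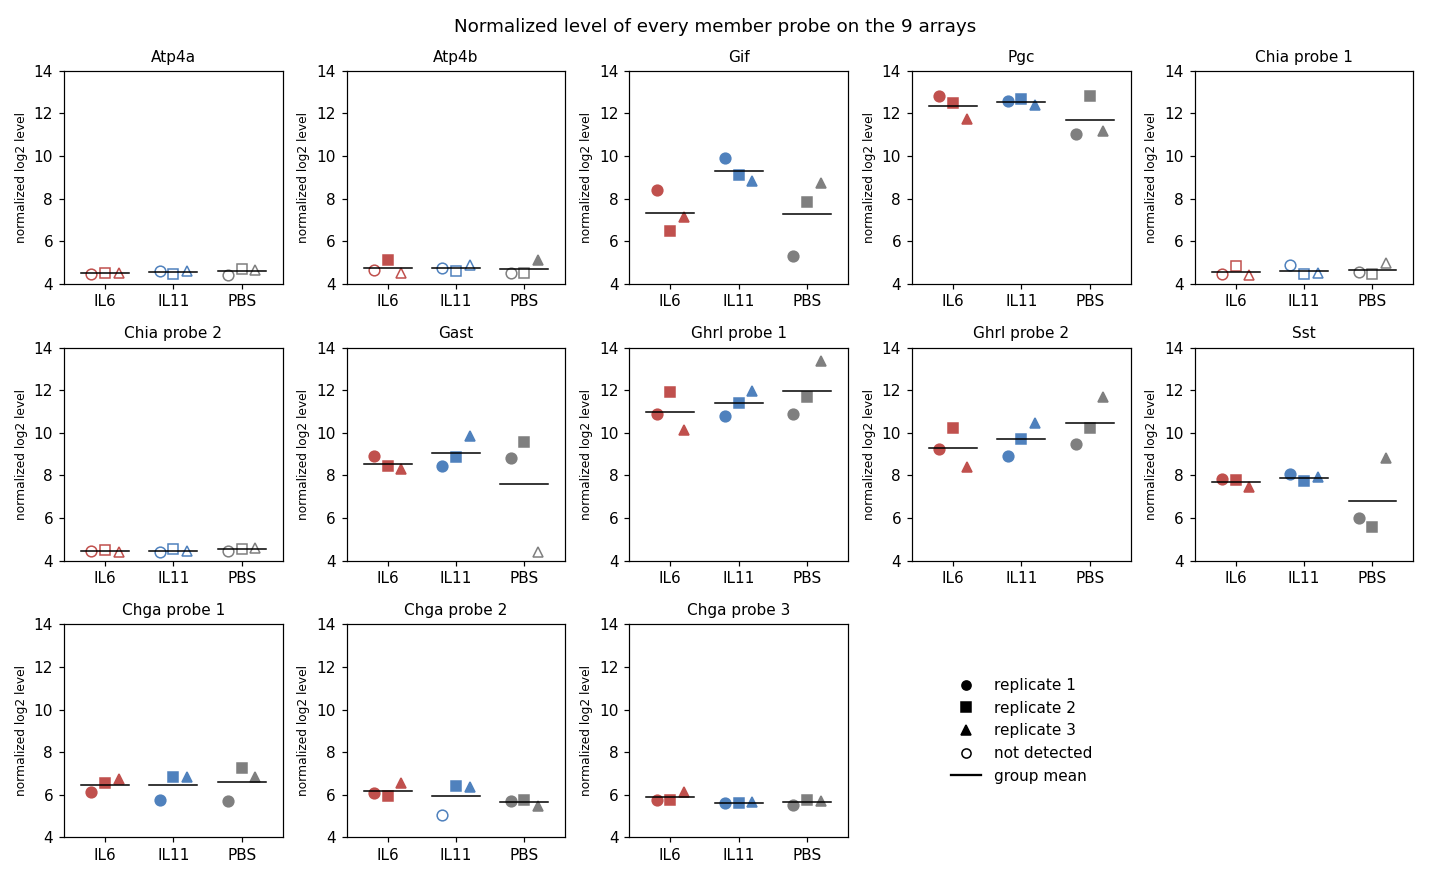
Normalized log2 level of each of the 13 probes on the 9 arrays, by group, with the replicate number as marker shape, open symbols for probes not detected on that array and a bar for the group mean. The symbols of Atp4a and Chia are all open, Atp4b has 2 filled symbols, and the PBS symbols of Gast, Gif and Sst are spread most widely.

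Gast, the gastrin precursor, had log2 levels of 8.89, 8.42 and 8.31 in IL6 tumours, 8.44, 8.89 and 9.83 in IL11 tumours, and 8.82, 9.55 and 4.42 in PBS tumours. Every tumour but PBS replicate 3 lay between 8.31 and 9.83, and that tumour was not detected, with a raw signal of 82.3 against 305.6 and 594.5 in the other PBS tumours. Group means were 8.54 ± 0.31 in IL6, 9.05 ± 0.71 in IL11 and 7.60 ± 2.78 in PBS tumours (SD, n = 3 each). The differences of 0.94 ± 1.08 in IL6 minus PBS and 1.45 ± 1.08 in IL11 minus PBS (SE) did not pass (adjusted p = 0.699 and 0.551, limma). Without PBS replicate 3 they turned to -0.64 and -0.14 (adjusted p = 0.451 and 0.894, limma).

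Sst, the somatostatin precursor, showed the reverse arrangement in the same PBS tumour. Its log2 levels were 7.82, 7.78 and 7.45 in IL6 tumours, 8.04, 7.73 and 7.92 in IL11 tumours, and 5.99, 5.56 and 8.80 in PBS tumours. The treated tumours lay close together, 2 PBS tumours lay below all of them, and PBS replicate 3 lay above all of them. The low readings, on PBS replicates 1 and 2, were close to background. Their raw signals were 104.7 and 110.3, beside array medians of 86.2 and 95.8, with detection p-values of 0.00427 and 0.01923. The size of a difference from them therefore depends on the background correction. With all 9 arrays the differences were 0.90 ± 0.67 in IL6 minus PBS and 1.11 ± 0.67 in IL11 minus PBS (SE, adjusted p = 0.541 and 0.474, limma). They were 0.51 and 0.68 with another background correction (normexp), and 0.41 and 0.57 with none. Without PBS replicate 3, Sst was higher by 1.91 ± 0.21 log2 with IL6, a fold of 3.75 (adjusted p = 0.0158, limma), and by 2.12 ± 0.21 with IL11, a fold of 4.35 (adjusted p = 0.0279, limma), against a PBS mean of 5.77 over 2 tumours. Leaving out PBS replicate 2 instead gave 0.29 with IL6 and 0.50 with IL11 (adjusted p = 0.897 and 0.824, limma), and leaving out PBS replicate 1 gave 0.50 and 0.72 (adjusted p = 0.704 and 0.578, limma), so that the Sst calls rest on which PBS array is left out. PBS replicate 3 was singled out after its values were seen, and both comparisons share the PBS tumours.

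Ghrl, the precursor of ghrelin, was measured by 2 probes that tracked each other, with a correlation of 0.99 over the 9 arrays. The first probe read 10.89, 11.91 and 10.13 in IL6 tumours, 10.78, 11.41 and 11.98 in IL11 tumours, and 10.87, 11.68 and 13.35 in PBS tumours. The second read 9.26, 10.23 and 8.37 in IL6 tumours, 8.92, 9.71 and 10.45 in IL11 tumours, and 9.46, 10.24 and 11.68 in PBS tumours. PBS replicate 3 was the highest tumour by both probes, and the remaining PBS tumours lay within the range of the treated tumours. The differences from PBS were -0.99 ± 0.63 and -1.18 ± 0.63 with IL6, and -0.57 ± 0.63 and -0.77 ± 0.63 with IL11, for the first and the second probe (SE, adjusted p = 0.402 to 0.693, limma). Without PBS replicate 3 they became -0.30 with IL6 and 0.12 with IL11 for the first probe, and -0.57 and -0.16 for the second.

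Chga, chromogranin A, is a granule protein of endocrine cells in general. Its 3 probes gave low levels, from 5.05 to 7.28, and all but 1 reading were detected. The first probe averaged 6.46 ± 0.31 in IL6, 6.47 ± 0.61 in IL11 and 6.62 ± 0.80 in PBS tumours (SD, n = 3 each), with overlapping groups. The second lay higher in every IL6 tumour (6.10, 5.93 and 6.55) than in every PBS tumour (5.70, 5.74 and 5.49), a difference of 0.55 ± 0.34 log2 (SE, adjusted p = 0.468, limma), whereas the first probe differed by -0.16 ± 0.41 in the same comparison. The probes therefore did not give 1 direction for Chga. The third differed by 0.24 ± 0.17 in IL6 minus PBS and by -0.25 ± 0.17 in IL11 minus IL6 (SE), and every IL11 tumour lay below every IL6 tumour.

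**Figure D2:**
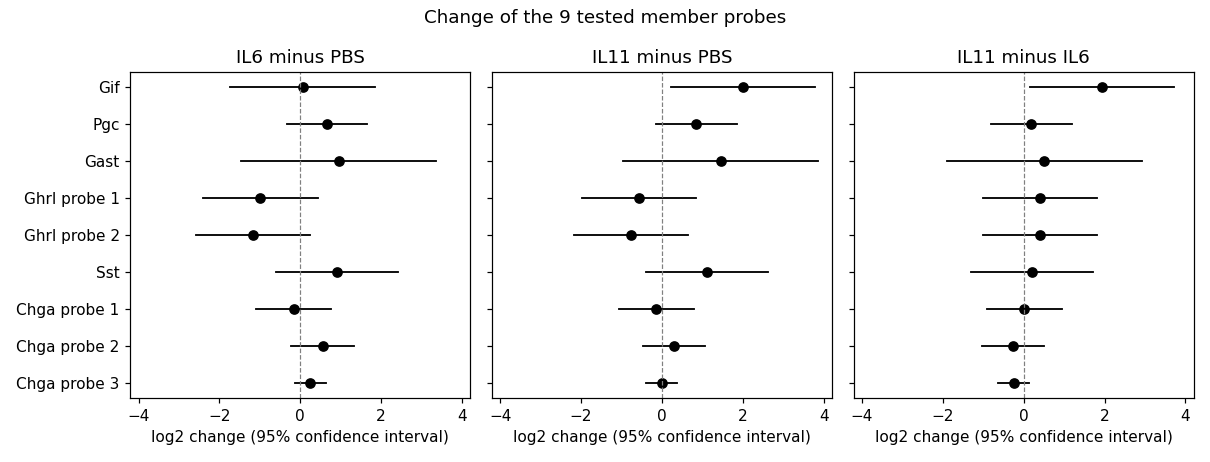
Log2 change of the 9 tested probes with the 95% confidence interval from limma, for each cytokine against PBS and for IL11 against IL6. The intervals of Gif in both IL11 comparisons lie above 0 before any adjustment, and all other intervals include 0.

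Over the 9 tested probes, 0 passed at an adjusted p under 0.05 in IL6 minus PBS, beside 0.264% of all kept probes. In IL11 minus PBS 0 passed, beside 0.0898%, and in IL11 minus IL6 0 passed, beside 0% of all probes. At an unadjusted p under 0.05 the counts were 0, 1 and 1 of 9, beside 14.4%, 13.4% and 2.35% of all probes. Groups did not overlap for 1 probe in IL6 minus PBS (beside 16.8%), the second Chga probe, 1 in IL11 minus PBS (beside 18.7%), Gif, and 2 in IL11 minus IL6 (beside 10.4%), Gif and the third Chga probe. With the cytokine named first higher, the counts were 1, 1 and 1 of 9, beside 8.46%, 8.74% and 4.77%. The median change of the 9 probes was 0.24, 0.29 and 0.22 in the 3 comparisons, against -0.01, -0.01 and 0.00 over all kept probes. IL6 minus PBS and IL11 minus PBS share the PBS tumours. Without PBS replicate 3, 1 of 9 probes, Sst, passed in each of these comparisons, beside 0.264% of all probes with IL6 and 0.0687% with IL11, or 0.227% and 0.0423% counting higher probes only.

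Among 39 listed endocrine genes, all on the array, 20 were kept and 14 were detected on no array, as were 47% of all target names. None of the 20 passed in either direction (2 and 1 at an unadjusted p under 0.05 with IL6 and IL11, beside 14.4% and 13.4% of all kept probes), and their median change was -0.07 with IL6 and 0.09 with IL11. Pyy, the precursor of peptide YY, differed by 1.77 ± 1.18 log2 in IL6 minus PBS and by 2.26 ± 1.18 in IL11 minus PBS (SE, adjusted p = 0.492 and 0.420, limma), and by -0.06 and 0.44 without PBS replicate 3 (adjusted p = 0.910 and 0.336, limma). Isl1, a transcription factor of endocrine cells, differed by -1.13 ± 0.46 and -0.87 ± 0.46 (SE, adjusted p = 0.316 and 0.422, limma), and by -0.54 and -0.28 without PBS replicate 2. Of 9 listed receptors for the gastric hormones and acid stimuli, 2 were kept: Sstr2, a somatostatin receptor, and Hrh2, the histamine receptor of parietal cells, and 0 of them passed. Receptor changes were 0.36 ± 0.27 and 0.10 ± 0.27 for Sstr2, and -0.71 ± 0.29 and -0.57 ± 0.29 for Hrh2, with IL6 and with IL11 (SE).

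Variation between tumours of the same group, pooled over the groups, was large for most of these genes. The within-group SD pooled over the 3 groups was 1.66 log2 for Gast, which 0.402% of kept probes equalled or exceeded, 1.22 for Gif (1.32%), 1.03 for Sst (2.17%), 0.96 and 0.95 for the Ghrl probes (2.53% and 2.62%) and 0.66 for Pgc (6.72%). The Chga probes had SDs of 0.61, 0.49 and 0.15. The median over the 9 probes was 0.95, against 0.29 over all kept probes, and 8 of 9 lay above that value. The PBS group held the largest of the 3 SDs for 7 of 9 probes (77.8%), as for 61.2% of all kept probes. The median SD of the 9 probes was 0.32 in IL6, 0.60 in IL11 and 1.13 in PBS tumours, beside 0.23, 0.19 and 0.34 over all kept probes. Sst varied little in treated tumours, with SDs of 0.20 in IL6 and 0.16 in IL11 against 1.76 in PBS tumours. Those of Gast were 0.31, 0.71 and 2.78, the last including the undetected reading of PBS replicate 3. Gif and the Ghrl probes varied in treated tumours too, with SDs of 0.57 to 0.99.

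**Figure D3:**
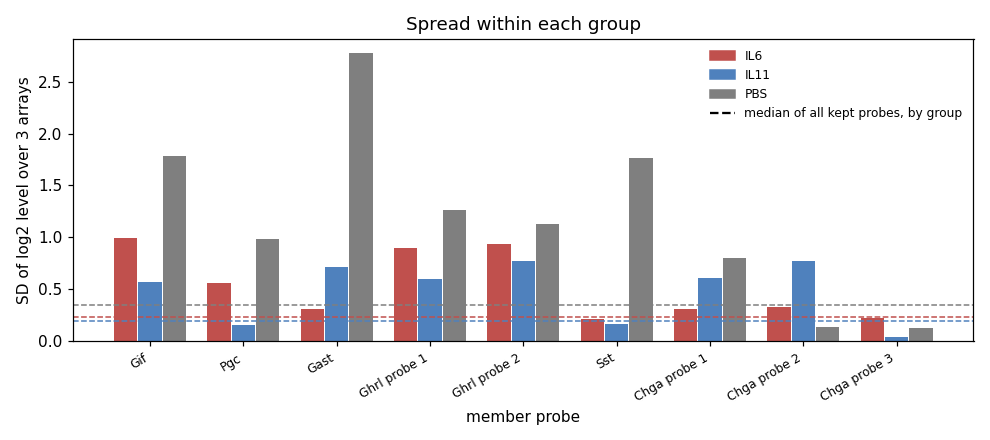
SD of the normalized log2 level over the 3 arrays of each group for the 9 tested probes, with dashed lines at the median SD of all kept probes in each group. The PBS bars of Gast (2.78), Gif (1.78) and Sst (1.76) are the tallest.

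PBS replicate 3 departed from the other 8 arrays in several genes at once. Such readings were common there: 18% of all kept probes lay below and 20% above all 8 others. On PBS replicate 2 the shares were 18.4% and 22.3%. Of the 9 tested probes, 1 lay below and 3 above all others on PBS replicate 3. Those above were both Ghrl probes and Sst, so that Ghrl counts more than once. Gast was not detected there, which bounds its level: against the lowest level of any probe detected on that array it was at least 14.1-fold lower than the mean of the other 8. The Ghrl probes were 2.14 and 2.10 log2 higher than that mean (ranks 73 and 78 from the top of 18925 probes) and Sst 1.51 higher (rank 230). Other endocrine and regional genes lay in both directions. Nkx6-3, a homeobox factor that mouse G cells need, was not detected (4.56) against 10.28 to 11.35 on the other 8, Pyy read 5.67 against 11.03 to 11.87, and Pdx1, a homeobox factor of antrum and pancreas, read 7.82 against 9.12 to 9.87. Above all 8 other arrays lay Cpe, a prohormone-processing enzyme, at 12.01 against 9.03 to 11.13, Hdc, which makes histamine, at 7.65 against 6.44 to 7.51, and the transcription factors Sox2 at 8.90 against 7.14 to 8.11 and Gata6 at 11.48 against 10.32 to 11.05. Also below all 8 lay Ddc at 6.09 against 7.84 to 8.62, Chgb at 6.68 against 7.55 to 8.46, and Gip of the endocrine list. Gata4 and Aqp5 of the regional list lay below all 8 as well. Barx1 and Hnf4a of that list, and the remaining kept endocrine genes, lay within the range of the other arrays. Some keratins of squamous epithelium were high: Krt14 read 14.18 against 6.74 to 11.21, and Krt13 read 12.09 against 6.18 to 8.01. Nkx6-3, Pdx1, Cpe, Hdc, Sox2, Gata6, Krt6b, Sbsn and Lor were named after their values were seen. The same holds for Ddc, Chgb, Gip, Gata4, Aqp5, Barx1, Hnf4a and Krt4. Of 15 listed squamous markers 7 were kept, and their mean level was 9.06 on PBS replicate 3, against 6.54 to 7.73 on the other 8 arrays, with IL11 replicate 3 highest of those. That mean was carried by Krt14, Krt13 and Krt6b. Krt4 also lay above all 8, at 5.92 against 4.75 to 5.56. Sbsn lay below all 8 (by 0.37 from their mean), and Ivl and Lor were 1.23 and 0.11 lower than the mean of the others. Krt5, a further basal keratin, was detected on 2 arrays. Their part in the Gast, Ghrl and Sst results was not tested.

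**Figure D4:**
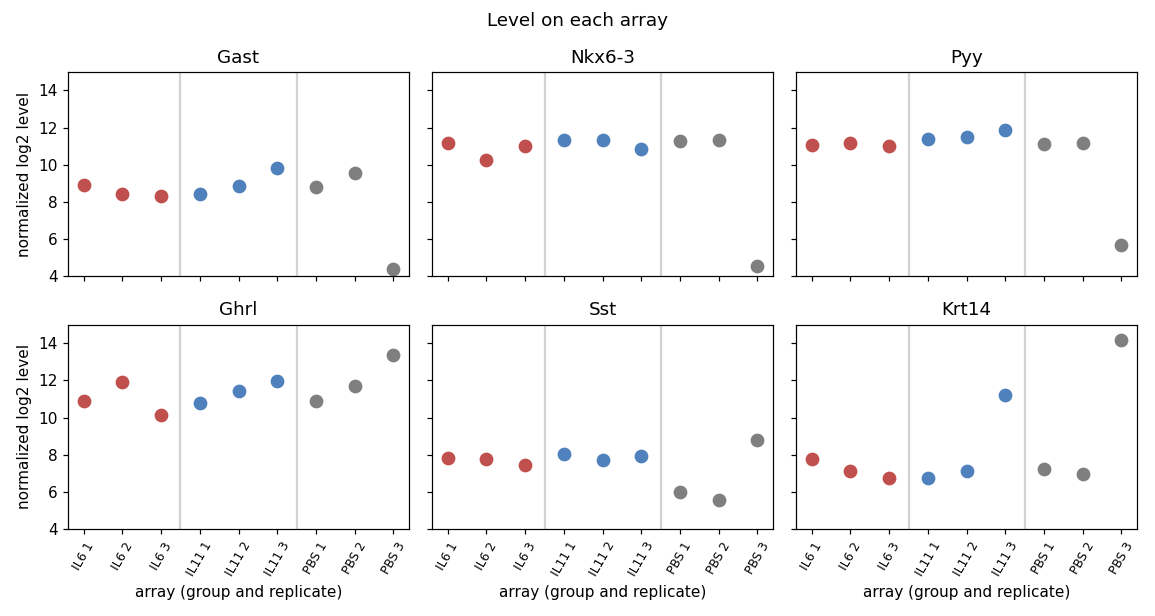
Normalized log2 level of 6 genes on each of the 9 arrays, ordered IL6, IL11 and PBS. PBS replicate 3 is lowest for Gast (4.42), Nkx6-3 (4.56) and Pyy (5.67) and highest for Ghrl (13.35), Sst (8.80) and Krt14 (14.18).

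PBS replicate 1 also contributed to the spread, with the lowest level of all 9 arrays for 4 of the 9 probes. These were Gif, Pgc and Chga probes 1 and 3, so that Chga counts more than once. Of all kept probes, 12.6% were lowest on that array. Among markers of other cells, the mean of 9 kept macrophage genes was 7.10 to 7.60 in IL6, 6.70 to 7.49 in IL11 and 7.71 to 8.33 in PBS tumours, and 0 of them passed (6 and 7 at an unadjusted p under 0.05, beside 14.4% and 13.4% of all kept probes). The mean of 6 kept smooth-muscle genes was 8.16 to 8.36 in IL6, 8.37 to 9.21 in IL11 and 8.47 to 9.53 in PBS tumours, and the IL11 and PBS values overlapped. Their part in the differences of the stomach genes was not tested.

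The probes whose levels followed each gene most closely over the 9 arrays were found by Pearson correlation among all kept probes. For Gast these were Pyy, Polr2h and 2010003K11RIK at 0.96, 0.96 and 0.95. For Ghrl they were C330013E15RIK at 0.99, and EG381438 and Coq9 at 0.97. For Gif they were 1110059G02RIK at 0.95, and Iars and Trub1 at 0.94. For Sst they were an unnamed target at 0.98, and Cxcl17 and a RIKEN transcript at 0.97 each. For Pgc they were Slc25a29 at 0.96, Batf2 at 0.94 and Rpsa at 0.92, and for the first Chga probe A730062O07RIK at 0.92, Rccd1 at 0.91 and AA536749 at 0.90. These values share the 9 tumours, and for Gast, Ghrl and Sst PBS replicate 3 lies far from the rest. Gast and the first Ghrl probe correlated at -0.59 over all 9 arrays and at 0.63 without that tumour. Gif and Pgc correlated at 0.48 over all arrays and at 0.72 without it.

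**Figure D5:**
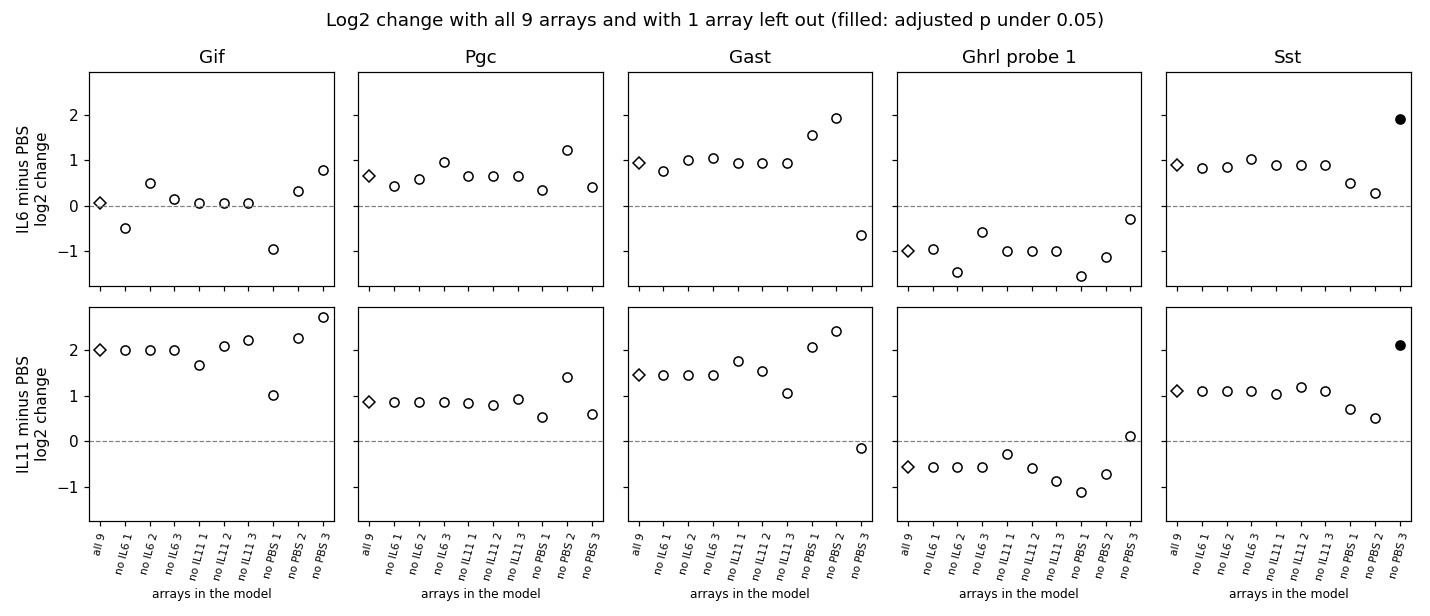
Log2 change in IL6 minus PBS (top) and IL11 minus PBS (bottom) for 5 probes, with all 9 arrays (diamond) and with each array left out (circles), filled where the adjusted p was under 0.05. The 2 filled circles are Sst without PBS replicate 3, and the Gast change crosses 0 when that array is left out.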

How the data were processed

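The 9 tumour arrays were analysed as described by their labels, with 3 mice per group. Per the file headers, the deposited table holds bead intensity per probe from BeadStudio 3.4.0 without normalization, and a detection value per probe and array, a fraction that rises with signal and was read as 1 minus the detection p-value. A separate deposited table of the authors' normalized log2 values was used as an alternative only. The submitters' processing notes name lumi and Partek, with no version or role.

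Intensities were background-corrected with neqc of limma 3.58.1 (R 4.3.3), its negative-control distribution estimated from those p-values, an offset of 16, quantile normalization and log2. Probes were kept where the detection p was below 0.05 on 3 or more of the 9 arrays, which left 18925. limma was fitted on the 9 arrays with 1 mean per group, and p-values were adjusted by Benjamini-Hochberg over all kept probes, with a threshold of 0.05. Calculations were tested on simulated data. The sources used here name no chip and no scan batch.

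The 9 genes and 18 gene lists were chosen with earlier results of these data known. Named were all probes of the 9 genes, of every other list the gene with the highest level and those with the largest positive and negative change against PBS, and the 3 probes most alike each gene, where described. In the gene lists each gene was represented by its kept probe with the highest mean level. Levels and changes of other probes are not given for genes outside the 9, and Slc26a9 had 4 kept probes. The symbol Gif is also an older name of Mif, which has probes of its own. Precision is limited by 3 arrays per group. Replicate numbers did not pair the samples.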

Additional observations from a re-analysis of the deposited data

How the results depend on the processing

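None of the probes passed in any comparison under the alternatives that tested them (9 probes, but 13 with no filter, 7 detected on all arrays and 6 with 1 probe per gene), except that Sst passed without PBS replicate 3 (leave-one-out range 0 to 1 in both comparisons with PBS). Counts over all kept probes were less stable. In IL6 minus PBS, the count of 50 became 1914 with median scaling, 32 with no filter, 27 with the replicate number as a block, 18 with array weights, 15 without PBS replicates 2 and 3, 5 with the 6 arrays compared only and 27 on the authors' values, and ranged from 2 (without IL6 replicate 1 or 3) to 737 (without PBS replicate 1). In IL11 minus PBS, 17 became 28 with normexp, 85 with median scaling, 5 with no filter, 0 with the replicate block, 5 with array weights, 31 with a robust trend, 4 without PBS replicates 2 and 3, 0 with the 6 arrays only and 11 on the authors' values, and ranged from 0 to 515 (without PBS replicate 1). In IL11 minus IL6, 0 became 3 with median scaling, 3 with array weights, and 2 each with a robust trend, without PBS replicates 2 and 3 and with the 6 arrays only. Listed genes that passed were 0, but 2 with IL6 (Slc26a9 and Epcam) and 1 with IL11 (Slc26a9) under median scaling, with leave-one-out ranges of 0 to 5 and 0 to 3. Median scaling moved the median of all probes by 0.38 with IL6 and 0.27 with IL11. It split the IL6 calls into 1909 higher and 5 lower, against 45 and 5. The IL11 calls were split into 84 higher and 1 lower (normexp 26 and 2), against 14 and 3.

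Signs turned for several changes, those of Gast and Ghrl included. In IL6 minus PBS, Gif was -0.0658 with normexp and -0.0807 with no background correction, the first Chga probe was 0.23 with median scaling, and without PBS replicates 2 and 3 Gast was -0.28, the first Ghrl probe 0.11 and the first Chga probe 0.73. In IL11 minus PBS, Chga probes 1 and 3 were 0.10 and 0.16 with median scaling and 0.74 and 0.13 without PBS replicates 2 and 3, where the Ghrl probes were 0.52 and 0.24. In IL11 minus IL6, the first Chga probe was -0.13 with median scaling and -0.0829 with array weights. Leave-one-out ranges that cross 0 were, in IL6 minus PBS, Gif -0.94 to 0.78, Gast -0.64 to 1.92 and the first Chga probe -0.60 to 0.17. In IL11 minus PBS they were Gast -0.14 to 2.43, the first Ghrl probe -1.12 to 0.12, and Chga probes 1 and 3 -0.59 to 0.20 and -0.0791 to 0.0421. In IL11 minus IL6 they were Pgc -0.12 to 0.42, the Ghrl probes -0.0092 to 0.88 and -0.0468 to 0.88, and the first and second Chga probes -0.16 to 0.36 and -0.50 to 0.19. The cause was not tested.

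The bound on Gast in PBS replicate 3, at least 14.1-fold lower than the mean of the other arrays, became at least 6.05-fold with normexp and at least 4.82-fold with no background correction. Deviations from the group mean correlated at -0.12 to 0.35 between same-numbered arrays of different groups. Between differently numbered arrays they correlated at -0.31 to 0.37, so that the block rests on a shared number only. Chip as a block was not run, because the headers give no chip, and the authors' values of single genes were not used, because their rows are not paired with gene names here. Signal near background limits Atp4a, Atp4b and Chia, and the lowest PBS readings of Gif and Sst.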

Other observations

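Of 10 listed intestinal genes, 6 were detected on no array, beside 47% of all target names: Cdx2, Muc2, Fabp1, Fabp2, Olfm4 and Sis. Of the others, Vil1, a villus actin-bundling protein, was detected on all 9 arrays, Tff3 and Alpi on 8 and Cdx1 on 5, and all were named after their detection was seen. A4gnt, which builds the mucin sugars of gland mucous cells, was singled out after its values were seen: it read 7.12, 7.23 and 6.78 in IL6 tumours, 6.83, 7.05 and 7.37 in IL11 tumours, and 5.90, 5.64 and 8.65 in PBS tumours. As for Sst, 2 PBS tumours lay below every treated tumour and PBS replicate 3 above.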
